A study of Drosophila melanogaster with 8 samples.

Results

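The 10 genes described here build chitin and shape it after it is made: mmy, kkv, rtv, knk, obst-A, Gasp, verm, serp, Cda4 and Cda5. They were chosen by name, each name matched exactly 1 of the 17730 genes in the deposited tables, and 9 of the 10 passed the filter on low counts, Gasp being the exception. Polyadenylated RNA had been sequenced from ML-DmD17-c3 cells (D17-c3), a Drosophila melanogaster line established from imaginal discs, and from S2-DRSC cells, a stock of Schneider's embryonic line S2, whose cells resemble hemocytes, the blood cells of the fly. Each line gave 4 libraries from separate culture flasks, and the labels list no treatment or introduced allele. Each line is 1 stock grown by the recipe its stock centre recommends, so line, stock and culture conditions cannot be told apart.

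Chitin is a polymer of N-acetylglucosamine that stiffens the cuticle and lines the tracheal tubes of insects. Cells make the activated sugar UDP-N-acetylglucosamine (UDP-GlcNAc) in the cytoplasm, and a chitin synthase in the apical membrane polymerises it and pushes the chain out of the cell. Membrane and secreted proteins then arrange the fibres, chitin-binding proteins cover them, and secreted deacetylases remove acetyl groups, a step that in the embryonic trachea of the fly is needed to limit tube length.

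Total expected counts ran from 76822525 to 91074700 per D17-c3 library and from 83612326 to 110163700 per S2-DRSC library. Disc marker genes were high in D17-c3 (ci 110 ± 20.1 TPM against 0.552 ± 0.067 TPM in S2-DRSC, SD, n = 4 each), although vg and nub, which mark the wing and haltere pouch, had only 0.628 and 0.11 TPM there. Of 8 hemocyte markers, 2 were called toward D17-c3 (srp at 138 ± 21.6 TPM against 94.4 ± 3.48 TPM in S2-DRSC, and Sr-CI at 15.8 ± 14.3 TPM against 1.5 ± 0.382 TPM) and 5 toward S2-DRSC, among them Hml (30.6 ± 9.6 TPM in D17-c3 and 310 ± 15.8 TPM in S2-DRSC). NimC1 was not called. Of 11606 genes tested, 39.1% were called higher in D17-c3 and 36.1% higher in S2-DRSC (75.2% in all) by edgeR's quasi-likelihood test at an adjusted p under 0.05, so a call by itself sets no gene apart. Of these calls 52% were higher in D17-c3, against 62.9% in the limma tests on TPM without TMM scaling, where the log2 fold changes of all genes had a median of 0.18 to 0.25 in place of 0.04. D17-c3 replicate 2 stood apart from its group, with correlations of log2 CPM (counts scaled to a common library total) of 0.981 to 0.988 with the other D17-c3 libraries, which correlated at 0.995 to 0.998 with each other. RNA of a whole culture was measured, so fewer cells expressing a gene and less RNA per cell cannot be told apart.

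Most of the 10 genes differed in level between the lines, in both directions. The genes that make the sugar donor and the polymer, mmy and kkv, were lower in D17-c3, by 2.49-fold and 43.8-fold. The 4 deacetylase genes verm, serp, Cda4 and Cda5 and the organiser gene rtv were higher in D17-c3, from 2.21-fold for Cda5 to 30.3-fold for verm. Of the 9 genes tested, 5 were called toward D17-c3 and 2 toward S2-DRSC, a share near the 75.2% of all tested genes. The median log2 fold change of the 9 was 1.15, beside 0.04 over all tested genes. At 7 of the 9 the TPM ranges lay apart, 5 with D17-c3 above and 2 with S2-DRSC above, as they did at 68.8% of all tested genes (43.8% with D17-c3 above and 25.1% with S2-DRSC above). No single D17-c3 or S2-DRSC library decided any of the 7 calls.

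**Figure D1:**
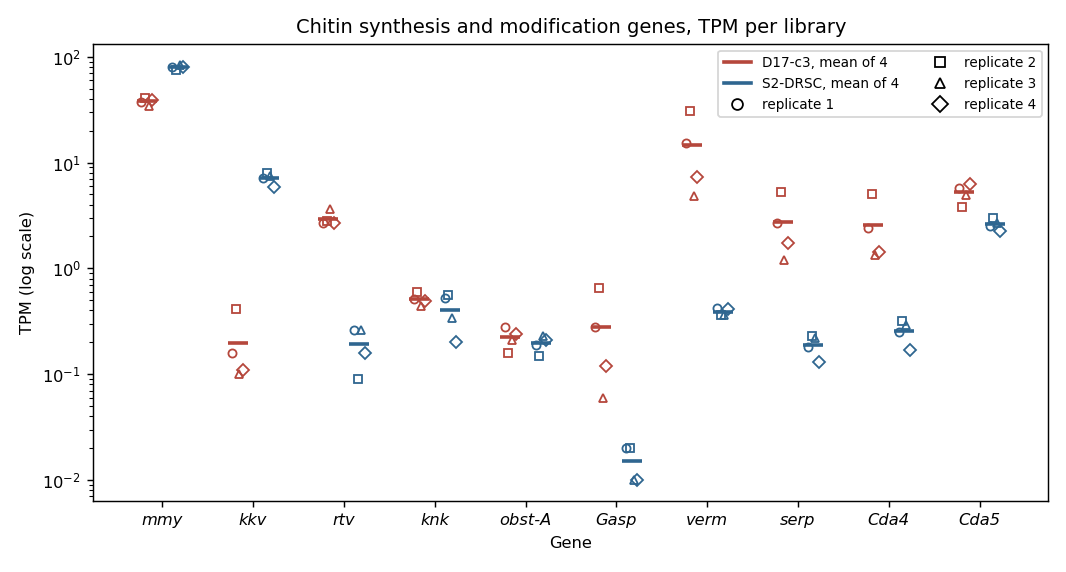
TPM of the 10 genes in each library on a log axis, D17-c3 in red and S2-DRSC in blue, with a symbol for each replicate and a line at the mean of 4 libraries. kkv sits between 0.1 and 0.41 TPM in D17-c3 and between 5.92 and 8.01 TPM in S2-DRSC, verm, serp and Cda4 are arranged the other way, and knk and obst-A overlap between the lines.

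The gene mmy (2L, 6468538 to 6473904, BDGP6) encodes UDP-N-acetylglucosamine pyrophosphorylase, the last enzyme on the way to the sugar donor. It had 37.2, 41, 33.9 and 39 TPM in D17-c3 replicates 1 to 4, against 79.4, 74.2, 83.9 and 79.5 TPM in S2-DRSC replicates 1 to 4. It was the most abundant of the 10 in each line, and every D17-c3 library lay below every S2-DRSC library. The log2 fold change was -1.32 ± 0.06 (SE, edgeR adjusted p = 4.81e-08).

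The gene kkv (3R, 5378093 to 5392866) encodes the chitin synthase of the epidermis and trachea. It had 0.16, 0.41, 0.1 and 0.11 TPM in D17-c3, against 7.15, 8.01, 7.46 and 5.92 TPM in S2-DRSC. In counts this was 35 to 132 reads per D17-c3 library and 2157 to 3700 per S2-DRSC library. The S2-DRSC libraries lay close together, and in D17-c3 replicate 2 stood above the other libraries, though still far below S2-DRSC. Its log2 fold change was -5.45 ± 0.37 (edgeR adjusted p = 8.61e-07), and without D17-c3 replicate 2 it was -6.01 ± 0.17. Without that library kkv was 64.3-fold lower in D17-c3.

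The gene CG14668 (3R, 5386717 to 5387664) lies within kkv on the same strand and shares no exon bases with it. It was listed at 0 counts in D17-c3 replicates 1, 3 and 4 and had 10 counts in replicate 2, against 60, 67, 59 and 43 counts in S2-DRSC replicates 1 to 4. Its level was thus 0 to 0.21 TPM in D17-c3 and 0.8 to 1.04 TPM in S2-DRSC, and the gene was named after its values were seen. Chs2, the other chitin synthase gene, which serves the gut lining, had 4 to 8 counts per D17-c3 library and 8 to 18 per S2-DRSC library. It did not pass the filter on low counts, and with no filter its log2 fold change was -1.05 ± 0.39 (edgeR adjusted p = 0.0371).

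The members that organise new chitin did not move together. The gene rtv (X, 11152484 to 11153990) encodes a small membrane protein needed for ordered chitin fibres. It had 2.67, 2.78, 3.66 and 2.67 TPM in D17-c3, against 0.26, 0.09, 0.26 and 0.16 TPM in S2-DRSC. The lines did not overlap, replicate 3 was highest in D17-c3, and the S2-DRSC values rested on only 7 to 18 counts per library. The log2 fold change was 3.76 ± 0.34 (edgeR adjusted p = 5.42e-06). The exons of rtv share 109 bases with Lint-1 on the opposite strand, and Lint-1 had 60.9 ± 17.5 TPM in D17-c3 and 30.7 ± 3.39 TPM in S2-DRSC. The expected counts of rtv and of Lint-1 were whole numbers in every library, so no division of reads between them shows there. Whether whole Lint-1 reads entered the rtv counts was not tested.

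The gene knk (3R, 10122365 to 10125664) encodes a membrane-anchored protein that protects and organises chitin. It had 0.51, 0.6, 0.44 and 0.49 TPM in D17-c3, against 0.53, 0.56, 0.34 and 0.2 TPM in S2-DRSC. The ranges overlapped, and no difference passed the test (log2 0.07 ± 0.30, edgeR adjusted p = 0.835). Its exons share 1712 bases with the antisense gene asRNA:CR46038. The expected counts of knk and asRNA:CR46038 were fractional in 6 of the 8 libraries and summed to a whole number in all 8, such as 85.99 and 9.01 in D17-c3 replicate 1. Reads in the shared bases were thus divided between genes on opposite strands, and reads of knk and of its antisense gene cannot be told apart there.

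Of the chitin-binding members, obst-A (X, 20239855 to 20243209), which forms a scaffold for cuticle assembly, had 0.28, 0.16, 0.21 and 0.24 TPM in D17-c3 and 0.19, 0.15, 0.23 and 0.21 TPM in S2-DRSC. The ranges overlapped and the gene was not called (log2 0.08 ± 0.26, edgeR adjusted p = 0.782). Gasp (3R, 6088799 to 6100887), an obstructor-family protein of the tracheal lumen and cuticle, had 24, 52, 6 and 10 counts in D17-c3, against 2, 2, 1 and 1 counts in S2-DRSC. Every S2-DRSC library was under the floor of 3 counts, and replicate 2 held more of the D17-c3 counts than any other library. The summed counts of 92 and 6 gave a CPM ratio of 15.6 with an exact 95% interval of 6.89 to 43.5, which covers counting error only. Without D17-c3 replicate 2, an alternative chosen after seeing the data, the counts were 40 and 6 and the ratio 9.16 (3.86 to 26.4). With no filter on low counts Gasp was tested, at a log2 fold change of 3.78 ± 0.75 (edgeR adjusted p = 0.00104).

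The deacetylase genes among the members were all higher in D17-c3. The gene verm (3L, 19690033 to 19695260) encodes a secreted deacetylase of the tracheal lumen. It had 15.4, 30.6, 4.83 and 7.23 TPM in D17-c3, against 0.42, 0.36, 0.36 and 0.41 TPM in S2-DRSC. The lines did not overlap, but the D17-c3 libraries spread far more than the S2-DRSC libraries, with coefficients of variation of 80.2% and 8.26%. The log2 fold change was 4.92 ± 0.54 (edgeR adjusted p = 2.15e-05), a 30.3-fold difference, and 20.2-fold without D17-c3 replicate 2.

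The gene serp (3L, 19700977 to 19708015) encodes the partner of verm in the trachea, and lies on the same strand 5716 bases away with no gene between them. It had 2.66, 5.27, 1.2 and 1.74 TPM in D17-c3, against 0.18, 0.23, 0.22 and 0.13 TPM in S2-DRSC. The D17-c3 libraries fell in the same order as for verm, with replicate 2 highest and replicate 3 lowest, and did not overlap with S2-DRSC. Its log2 fold change was 3.51 ± 0.42 (edgeR adjusted p = 4.24e-05), or 3.04 ± 0.27 without D17-c3 replicate 2.

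Cda4 (X, 22583634 to 22632710) encodes a deacetylase with a chitin-binding domain. It had 2.39, 5.09, 1.34 and 1.42 TPM in D17-c3, against 0.25, 0.32, 0.29 and 0.17 TPM in S2-DRSC. Replicate 2 was again highest and replicate 3 lowest in D17-c3, and the lines did not overlap. On the log2 scale the fold change was 3.00 ± 0.42 (edgeR adjusted p = 0.000119), or 2.51 ± 0.25 without D17-c3 replicate 2.

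Cda5 (2L, 25402 to 65404), a deacetylase gene with 8 annotated transcripts, was the most abundant deacetylase gene in S2-DRSC. It had 5.78, 3.8, 4.97 and 6.29 TPM in D17-c3, against 2.54, 3, 2.69 and 2.27 TPM in S2-DRSC. Here replicate 2 was the lowest D17-c3 library, and the lines still did not overlap. The log2 fold change was 1.15 ± 0.17 (edgeR adjusted p = 0.000177), a 2.21-fold difference and 2.45-fold without D17-c3 replicate 2.

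The lines also differed in the mix of Cda5 transcripts. Its deposited length, an average over transcripts weighted by their abundance, was 6723, 6833, 6700 and 6692 bases in D17-c3, against 5196, 5149, 5110 and 5176 bases in S2-DRSC. The lines lay far apart and the replicates within a line close together. In a limma test on log2 length the ratio of D17-c3 over S2-DRSC was 0.39 ± 0.01 (SE, adjusted p = 4.9e-07). Of 5764 genes tested for length, 34.9% were called and 23% were longer in D17-c3, and the absolute ratio of Cda5 ranked 102nd.

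The annotation splits Cda5 transcripts into 3 short forms of 3917 to 4350 bases and 5 long forms of 6150 to 7266 bases. All 5 long forms carry 1 of a pair of large exons that no short form has, 1 of 2877 bases (2L, 30394 to 33270) in 2 forms and 1 of 2553 bases (2L, 35746 to 38298) in 3 forms. Both exons are wholly coding, and the coding length is 4686 to 5994 bases in long forms and 2673 to 3120 bases in short forms. Given these lengths, the deposited averages require that long forms made up at least 80.3% of Cda5 transcripts in every D17-c3 library and between 26.1% and 57.3% in S2-DRSC libraries, so long forms were present in both lines. These bounds hold only if the annotated forms are the ones present.

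**Figure D2:**
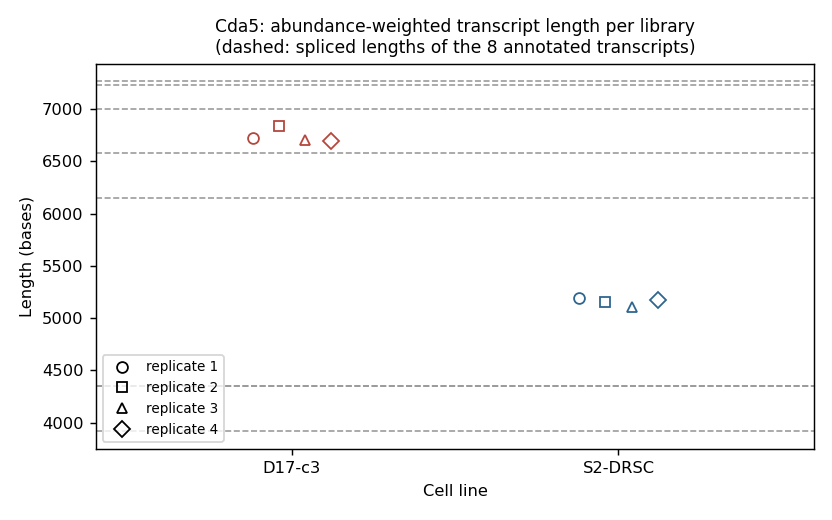
Abundance-weighted transcript length of Cda5 in bases, per library, for D17-c3 (red) and S2-DRSC (blue), with dashed lines at the spliced lengths of the 8 annotated transcripts. The D17-c3 libraries sit between 6692 and 6833 bases, among the long forms, and the S2-DRSC libraries between 5110 and 5196 bases, between the short and the long forms.

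No length difference passed the test at the other 5 members tested for it, mmy, verm, serp, obst-A and rtv (limma adjusted p = 0.605, 0.899, 0.693, 0.462 and 0.204). The length of Gasp was not tested because the gene failed the filter on counts. That of kkv, Cda4 and knk did not vary between libraries, since Cda4 and knk have 1 annotated transcript each and every library listed kkv at 5524 bases. Among the kkv forms, 2 have that length and 1 of 5457 bases was given no weight in either line.

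The 4 deacetylase genes together outweighed kkv in D17-c3 and not in S2-DRSC. Their summed level was 26.3, 44.8, 12.3 and 16.7 TPM in D17-c3, against 3.39, 3.91, 3.56 and 2.98 TPM in S2-DRSC. The sum was 109 to 164 times the level of kkv in D17-c3 libraries, against 0.474 to 0.503 times in S2-DRSC libraries. In D17-c3 verm made up 39.1% to 68.4% of the sum and Cda5 8.49% to 40.3%, while in S2-DRSC Cda5 made up 74.9% to 76.7% and verm 9.21% to 13.8%.

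The order of the members by mean TPM also differed between the lines. In D17-c3 it was mmy, verm, Cda5, rtv, serp, Cda4, knk, Gasp, obst-A and kkv. The ranges of verm and Cda5, of rtv, serp and Cda4, and of knk, Gasp, obst-A and kkv overlapped with their neighbours in that order. In S2-DRSC it was mmy, kkv, Cda5, knk, verm, Cda4, obst-A, rtv, serp and Gasp, and mmy, kkv and Cda5 were separated from each other and from the rest. Most members were low in the transcriptome: among genes with TPM above 0, mmy stood at the 73.9th to 75th percentile in D17-c3 and the 87.1st to 88.2nd in S2-DRSC, while kkv stood at the 15.8th to 26.9th in D17-c3 and the 49.5th to 52.8th in S2-DRSC.

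A group of members was raised together in D17-c3 replicate 2. In that library kkv, verm, serp, Gasp and Cda4 were 2.69-, 3-, 2.49-, 3.09- and 2.59-fold above the mean CPM of the other D17-c3 libraries, while 5.74% of all tested genes were over 2-fold above it. Cda5 went the other way at 0.606-fold, and mmy, knk, obst-A and rtv lay between 0.755- and 1.09-fold. No member was over 2-fold below, where 5.1% of tested genes were. With the library left out, all 7 calls held and the fold changes of kkv and verm moved by about 1.5 times.

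Other genes and cell type markers moved in the same library. The chitin-binding genes obst-E, obst-F (5 counts in the whole line), obst-H and obst-J were also over 2-fold above the other D17-c3 libraries. Of 13 chitinase and hexosaminidase genes, Cht5 (3.83-fold), Cht7 and Cht8 were over 2-fold above them and Hexo2 (0.499-fold) over 2-fold below. Hexo1, Cht6, Cht2 and Cht11 were lower too, at 0.504-, 0.544-, 0.618- and 0.618-fold. Over all tested genes, 5.74% were over 2-fold above and 5.1% over 2-fold below. Of 8 hemocyte markers, NimC1 (3.96-fold) and Sr-CI (3.78-fold) were over 2-fold higher there and Hml over 2-fold lower. The summed level of the 8 was 260, 284, 197 and 255 TPM in D17-c3 replicates 1 to 4, against 8402 to 10400 TPM in S2-DRSC, where Nplp2 alone had 7430 to 9374 TPM. Of 3 muscle markers Mhc was 5.53-fold higher in replicate 2, and the sum of the 3 was 134, 134, 101 and 148 TPM in D17-c3 against 69.4 to 78.6 TPM in S2-DRSC. Of 8 disc markers wg and vg were over 2-fold higher and Egfr and hh over 2-fold lower, with a sum of 515, 419, 414 and 513 TPM in D17-c3 against 68.7 to 82.1 TPM in S2-DRSC. None of these markers was at 0 in a D17-c3 library, and their part in the shift of the chitin genes was not tested.

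**Figure D3:**
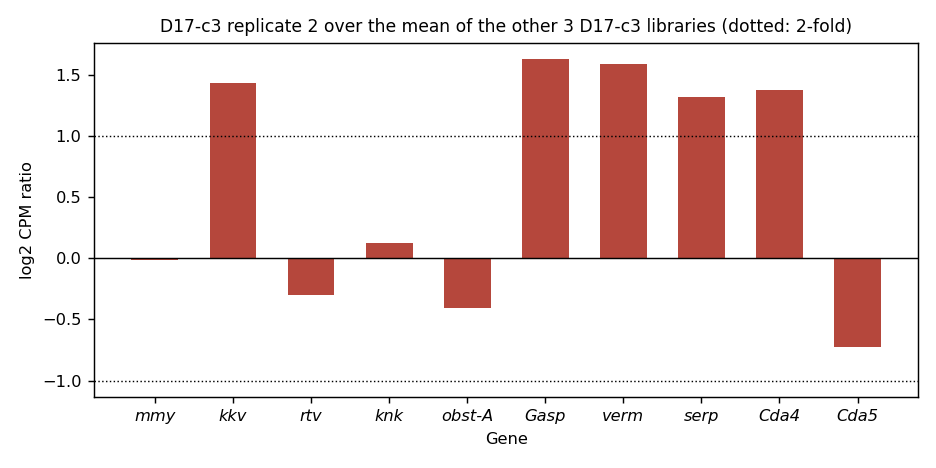
log2 ratio of CPM in D17-c3 replicate 2 over the mean of the other 3 D17-c3 libraries, for each of the 10 genes, with dotted lines at 2-fold. Bars for kkv, Gasp, verm, serp and Cda4 pass the upper line, and the bar for Cda5 points down to -0.72.

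The other genes of the pathway were read from lists of 45 genes, of which 42 were found in the tables and 34 tested. Of these 34, 13 were called toward D17-c3 and 9 toward S2-DRSC, with a median log2 fold change of 0.27, beside 39.1% and 36.1% of all tested genes.

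Upstream of mmy on the route to UDP-GlcNAc, Gfat2 and Gnpnat were lower in D17-c3 too, and nst was higher. Of 5 genes tested, including a salvage and a deaminase gene, 1 was called toward D17-c3 and 3 toward S2-DRSC. Over all tested genes these shares were 39.1% and 36.1%. Gfat2, which encodes the enzyme of the first committed step, had 52.9 ± 22.9 TPM in D17-c3 and 125 ± 3.61 TPM in S2-DRSC (SD, n = 4 each, log2 -1.51 ± 0.20), with 86.7 TPM in D17-c3 replicate 2. Gnpnat, the acetyltransferase gene, had 12.5 ± 0.57 TPM in D17-c3 and 67.1 ± 3.15 TPM in S2-DRSC (log2 -2.67 ± 0.10). The mutase gene nst ran against these, at 46.1 ± 6.02 TPM in D17-c3 and 21.6 ± 2.09 TPM in S2-DRSC (log2 0.84 ± 0.08). The salvage kinase candidate CG6218 was lower in D17-c3 (log2 -1.07 ± 0.11). Oscillin, which encodes a glucosamine-6-phosphate deaminase and so drains the route, had 36.2 ± 4.89 TPM in D17-c3 and 25.5 ± 0.955 TPM in S2-DRSC and was not called (edgeR adjusted p = 0.116), but it passed without D17-c3 replicate 2 (adjusted p = 0.00118). Gfat1 had 2 to 6 counts per D17-c3 library and 5 to 8 per S2-DRSC library and was not tested.

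Other enzymes that use UDP-GlcNAc differed little between the lines. Of 5 tested, 3 were called, beside 75.2% of all tested genes. The O-GlcNAc transferase gene sxc was higher in D17-c3 (log2 0.26 ± 0.06), and the N-glycan genes Mgat1 (-0.24 ± 0.07) and Mgat2 (-0.41 ± 0.14) were higher in S2-DRSC. The calls of Mgat1 and Mgat2 ended with library totals only and in the limma tests on unscaled TPM, that of Mgat1 also with the filter of 1 CPM in 4 libraries, and that of Mgat2 also without D17-c3 replicate 3. Without D17-c3 replicate 2 a further gene of this list was called toward D17-c3.

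A pair of genes that work beside kkv in depositing chitin, exp and reb, had the opposite pattern to kkv. The gene exp encodes a cytoplasmic protein that kkv needs to lay down chitin in the fly trachea. It had 10.7, 10.4, 8.78 and 10.5 TPM in D17-c3, against 0.14, 0.15, 0.18 and 0.13 TPM in S2-DRSC. The lines lay far apart with little spread in each (log2 5.77 ± 0.12, edgeR adjusted p = 8.76e-10). Its relative reb, named here after its values were seen, had 0.485 ± 0.0635 TPM in D17-c3 and 0.085 ± 0.0332 TPM in S2-DRSC (log2 2.24 ± 0.27). D17-c3 thus had exp RNA and little kkv RNA, and S2-DRSC had kkv RNA and little exp or reb RNA. Of 5 such genes of the apical matrix tested, 2 were called toward each line, beside 39.1% of all tested genes toward D17-c3 and 36.1% toward S2-DRSC. The gene dpy, which encodes a giant matrix protein, had 0.76 ± 0.226 TPM in D17-c3 and 8.72 ± 0.287 TPM in S2-DRSC (log2 -3.72 ± 0.19).

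**Figure D4:**
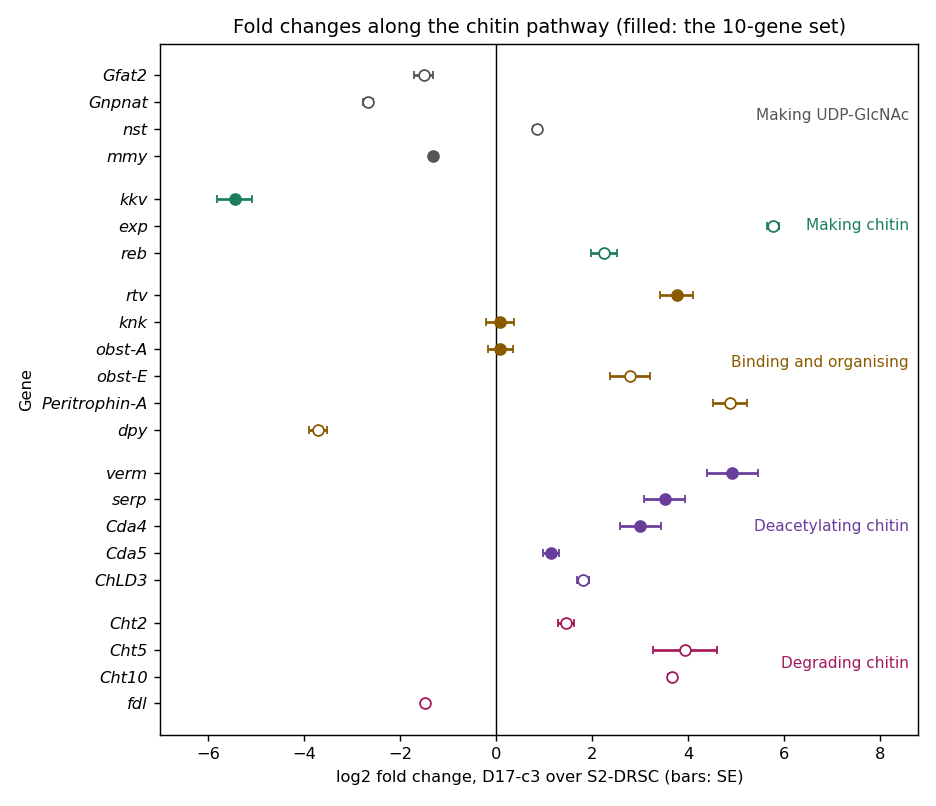
log2 fold changes of D17-c3 over S2-DRSC with SE bars for genes along the pathway, with filled symbols for members of the 10-gene set and open symbols for others. Gasp, which did not pass the filter on low counts, is not drawn. Gfat2, Gnpnat, mmy and kkv lie to the left of 0, exp, rtv, verm, serp, Cda4, Cda5 and ChLD3 to the right, and knk and obst-A near 0. Not every gene of the lists is drawn, and Cda9, a deacetylase gene called lower in D17-c3, is among those left out.

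Further chitin-binding, deacetylase and chitinase genes were mostly higher in D17-c3 where they differed. Over all tested genes, 39.1% were called toward D17-c3 and 36.1% toward S2-DRSC. Of 6 other obstructor and peritrophin genes tested, 3 were called toward D17-c3 and 0 toward S2-DRSC, led by Peritrophin-A at 1.75 ± 0.374 TPM in D17-c3 and 0.05 ± 0.0327 TPM in S2-DRSC (log2 4.87 ± 0.35) and obst-E at 2.15 ± 1.37 TPM and 0.25 ± 0.0606 TPM in the same order (log2 2.79 ± 0.42). Without D17-c3 replicate 2, 1 gene of this list was called toward S2-DRSC. The deacetylase-like gene ChLD3 was higher in D17-c3 (5.49 ± 0.821 TPM, against 1.32 ± 0.159 TPM in S2-DRSC) and Cda9 was lower (0.12 ± 0.0271 TPM, against 0.2 ± 0.0245 TPM), a call that DESeq2 did not make.

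Of 11 chitinase and hexosaminidase genes tested, 5 were called toward D17-c3 and 1 toward S2-DRSC, beside 39.1% and 36.1% of all tested genes. With D17-c3 replicate 2 left out, 8 were called toward D17-c3, and calls over all tested genes rose from 75.2% to 79.3%. Cht5, a chitinase of moulting, had 1.83, 4.58, 0.51 and 0.81 TPM in D17-c3, against 0.15, 0.08, 0.07 and 0.11 TPM in S2-DRSC (log2 3.93 ± 0.67, and 3.14 ± 0.43 without D17-c3 replicate 2). Cht10 had 6.47 ± 0.457 TPM in D17-c3 and 0.432 ± 0.0171 TPM in S2-DRSC (log2 3.66 ± 0.08). Cht2, named after its values were seen because it was the most abundant chitinase gene, had 186 ± 37.8 TPM in D17-c3 and 58.5 ± 2.93 TPM in S2-DRSC (log2 1.45 ± 0.16). The hexosaminidase gene fdl, whose product trims N-glycans in the fly, was lower in D17-c3 (29.9 ± 2.86 TPM, against 69.9 ± 1.61 TPM in S2-DRSC).

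Because several members act in the trachea, markers of tracheal and other epithelial cells were read beside them. The tracheal receptor gene btl had 124 ± 42.7 TPM in D17-c3 and 0.86 ± 0.115 TPM in S2-DRSC, but trh, which specifies the trachea, had 0.518 ± 0.0888 TPM and 0.215 ± 0.0465 TPM in the same order, and vvl was at 0.02 TPM or less in every library. The 3 summed to 86.4 to 180 TPM in D17-c3 and 0.98 to 1.2 TPM in S2-DRSC, with 2 of 3 tested and both called toward D17-c3. Over all tested genes, 39.1% were called toward D17-c3 and 36.1% toward S2-DRSC. Of 3 neuronal markers 0 were called toward D17-c3 and 1 toward S2-DRSC. Of 3 epithelial markers, grh and shg were higher in D17-c3 and crb in S2-DRSC, and the sum was 30 to 42.2 TPM in D17-c3 and 14 to 17.7 TPM in S2-DRSC. The part of these markers in the differences of the chitin genes was not tested.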

How the data were processed

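Polyadenylated RNA was sequenced after preparation with a stranded kit, per the labels' protocols. Among the tools listed in the submitters' processing notes are RSEM, STAR 2.7.3a and Trim Galore 0.6.4, featureCounts of Subread 2.0.0, and DESeq2 1.30.1, beside the builds BDGP6 and dm6, and their roles are not stated. The strand setting of the counting was not given in the sources used here. The expected counts are estimates the authors made per gene from their aligned reads before deposit, in the layout of an RSEM table. The deposited TPM values are scaled per length and sum to 1000000 in each library, so they were used to set genes side by side. Deposited lengths, in bases, are averages over transcripts (unit other).

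Libraries were grouped by the line their labels name. Expected counts were rounded and tested over all genes with edgeR 4.0.16 (TMM factors, filterByExpr, quasi-likelihood test, 11606 genes, Benjamini-Hochberg threshold 0.05), with SEs derived from the F statistic. Lengths were tested with limma 3.58.1 on log2 values over 5764 genes that varied by more than 1 base. Ratios for D17-c3 replicate 2 used CPM plus 0.05. Both tests were tried on simulated data. There every gene had the same count dispersion, and the spread of lengths was that of S2-DRSC. The wider spread of D17-c3 at genes such as verm was not simulated. A floor of 3 counts is 0.0294 to 0.038 CPM. Reads carried no molecular identifiers, so floors and intervals cover counting error only. Replicates differed beyond sampling noise (chi-square at least 8.26 times its degrees of freedom), so none was a duplicate. Positions are those of Ensembl's BDGP6 annotation, which held all 10 genes and their transcripts. The genes named are the 10 members, the hexosamine list, Chs2, and up to 2 called genes per direction of each other list with at least 1 TPM in the higher line. Others stand as markers, in counts or as genes that overlap a member, or fall outside this rule and were named after their values were seen. Those of the last kind include Cda9, ple, t, Hexo1, Hexo2, Cht6 and Cht11. Members and lists were chosen with earlier results of these data known.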

Additional observations from a re-analysis of the deposited data

Results flagged for a closer look

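Among 90 groups of 4 libraries checked, 8 were flagged. In these a library's gap to its nearest neighbour, as a share of the group's range, passed the 95% limit for 4 values. Chance flags about 1 group in 20 where values are continuous and normally distributed. That share is only a rough guide here. The lengths of kkv, Cda4 and knk did not vary and could not be flagged, and the verm and Gfat1 flags below rest on tied values. For rtv, D17-c3 replicate 3 had 3.66 TPM, with the other D17-c3 libraries at 2.67 to 2.78 TPM. For exp, D17-c3 replicate 3 was low at 8.78 TPM. For Oscillin, D17-c3 replicate 2 was low at 28.92 TPM. For ChLD3, S2-DRSC replicate 4 was low at 1.08 TPM, and for Gfat1, S2-DRSC replicate 4 was high at 0.05 TPM on 8 counts. The transcript length of mmy was 2029.12 bases in D17-c3 replicate 4, about 1 base from the others. That of verm was 2170.78 bases in S2-DRSC replicate 4, where the gene had 56 counts. That of Gasp was 1683 bases in D17-c3 replicate 3, on 6 counts.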

How the results depend on the processing

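The 17 alternatives were median-of-ratios factors, library totals only, DESeq2 1.42.0, no filter, a filter of 1 CPM in 4 libraries, limma on log2(TPM + 1), on log2(TPM + 0.1) and on log2(TPM + 1) after TMM scaling, the replicate number as a block, and each library left out in turn. The 7 members called kept their direction and their call in all of them, with log2 fold changes of -6.01 to -2.77 for kkv, 3.01 to 5.18 for verm and 0.55 to 1.31 for Cda5. The cause of these ranges was not tested. The count higher in D17-c3 was 5 or 6 and that in S2-DRSC was 2. The further gene was Gasp, which was tested and called with no filter, without D17-c3 replicate 3 and without each S2-DRSC library, at log2 fold changes of 3.66 to 4.11. The other pathway genes numbered 10 to 18 higher in D17-c3 and 6 to 10 in S2-DRSC.

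Among members, only obst-A and knk, never called, changed sign: obst-A to -0.014 after TMM scaling of TPM and to between -0.098 and 0.24 with a library left out, and knk, between -0.17 and 0.25 with a library left out, to -0.02 and -0.17 without S2-DRSC replicate 3 and 4. Over the 33 named genes with a test, 11 of 557 gene and setting pairs lost a call (Mgat1, Mgat2 and tgo) and 4 gained one (Oscillin). List counts that moved by over 1.5 times included those of UDP-GlcNAc users in S2-DRSC (2, and 0 with library totals only), of obstructor genes in D17-c3 (3, and 1 with the filter of 1 CPM) and of regulators in S2-DRSC (2, and 0 in the limma tests on unscaled TPM). The cause was not tested. Cda5 was the 1 member called for length in all 10 alternatives for that test.

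Replicate numbers are shared between the lines. Deviations of same-numbered libraries correlated at 0.0424, 0.199, -0.141 and 0.0689, and those of differently numbered libraries at -0.261 to 0.364. As these ranges overlap, the correlations cannot show whether same-numbered libraries share more than a number. With the replicate block, kkv had a log2 fold change of -5.58 and the members' counts were 5 and 2. The 34 to 121 counts of knk and 16 to 30 of obst-A per library limit what differences could be seen.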

Other observations

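Transcription factor genes of epidermal, tracheal and moulting programmes differed unevenly. Of 9 tested, 4 were called toward D17-c3 and 2 toward S2-DRSC, beside 39.1% and 36.1% of all tested genes. The 9 had a median log2 fold change of 0.24, beside 0.04 over all genes. The gene grh, an epidermal regulator of cuticle genes, had 5.7 ± 1.41 TPM in D17-c3 and 0.39 ± 0.0583 TPM in S2-DRSC (SD, n = 4 each). The gene tgo, the common partner of trh and other factors of its class, was abundant in both lines (39 ± 7.91 TPM in D17-c3 and 41.8 ± 1.9 TPM in S2-DRSC) and was called slightly higher in S2-DRSC (log2 -0.33 ± 0.09), a call that ended with library totals only and in both limma tests on unscaled TPM. The moulting factors ftz-f1 and Eip75B, named after their values were seen, were abundant and not called (edgeR adjusted p = 0.129 and 0.051).

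Cuticle tanning and septate junction genes were read because tanning follows chitin deposition and the secretion of verm and serp depends on septate junctions in the fly trachea. Of 8 tanning genes, 4 were called toward D17-c3, led by AANAT1 at 6.43 ± 2.81 TPM in D17-c3 and 0.19 ± 0.056 TPM in S2-DRSC and by b (3.14 ± 0.194 TPM and 0.615 ± 0.112 TPM in the same order). A further 3 were called toward S2-DRSC, led by y (0.477 ± 0.11 TPM in D17-c3, against 4.24 ± 1.6 TPM in S2-DRSC) and stw (10.2 ± 1.1 TPM, against 15.2 ± 1.55 TPM). Over all tested genes, 39.1% were called toward D17-c3 and 36.1% toward S2-DRSC. In D17-c3 replicate 2, 3 of the 8 tanning genes were over 2-fold below the other D17-c3 libraries and 0 over 2-fold above. These were AANAT1 (0.28-fold), t (0.383-fold) and ple (0.399-fold), whereas verm was 3-fold above. The rest of the tanning list lay between 0.805- and 1.31-fold. Over all tested genes, 5.1% were over 2-fold below. Of 14 septate junction genes, 11 were called toward D17-c3 and 0 toward S2-DRSC, beside 39.1% and 36.1% of all tested genes. Without D17-c3 replicate 4, and in limma on log2(TPM + 1) after TMM scaling, 1 was called toward S2-DRSC. Those toward D17-c3 were led by vari (29.5 ± 3.84 TPM in D17-c3, against 2.51 ± 0.395 TPM in S2-DRSC) and bou (19.7 ± 3.08 TPM, against 2.38 ± 0.253 TPM). The median log2 fold change of the list was 1.33.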
